A study of Mus musculus with 9 samples.

Results

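Expression without serum was compared between 2 mouse prostate epithelial cell lines, 1 lacking the retinoblastoma gene Rb1 (Rb-/-, called Rb-null here) and 1 with the wild-type gene. Members of the comparison are the arrays titled as serum-free for either line, 2 arrays a line and 4 of the 9 arrays in the series, read across every probe set that could be measured. Both lines had spent 48 hours in RPMI-1640 medium with no serum. The other 5 arrays, 3 of wild-type and 2 of Rb-null cells, came from medium with 5% fetal bovine serum and served as the second setting in which the same lines could be read. Of 12422 probe sets on the array, 9686 were tested, 8643 of them with a single gene symbol, for 7063 genes. Each genotype is represented by 1 line, and no label says if the arrays of a group are separate cultures, so p-values measure the spread between these arrays and each difference is one between these lines.

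The retinoblastoma protein binds E2F transcription factors and represses genes needed for the start of DNA replication. Growth factors in serum relieve that repression through D-type cyclins, whose kinases phosphorylate the protein, and withdrawal of serum normally returns epithelial cells to a resting state in which E2F targets are low. Other processes that respond to nutrient or serum supply are the integrated stress response, in which the factor ATF4 drives amino acid and transfer RNA synthetase genes, the immediate-early genes, and the actin cytoskeleton, whose genes follow serum response factor.

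The promoters of 4 DNA replication genes that were higher in Rb-null cells are shown first, because each holds a sequence of the kind E2F factors bind. Each line gives the 250 bases before the gene's start as RefSeq places it on mouse assembly GRCm38.p6, read on the strand of the gene, with the motif in capitals. The letters searched were TTTCGCGC, TTTGGCGC, TTTCCCGC and TTTGCCGC on both strands, so that a match on the opposite strand appears as its reverse complement. Pola1, the catalytic subunit of DNA polymerase alpha, lies at chrX:93632156-93632405 on the minus strand for this stretch, with the motif starting at position -138. Mcm7, a subunit of the replicative helicase, lies at chr5:138171884-138172133 on the minus strand (motif at -165). Topbp1, which helps to fire origins, lies at chr9:103305077-103305326 on the plus strand (motif at -129). Cdc6, which loads the helicase, lies at chr11:98907901-98908150 on the plus strand (motif at -138).
Pola1: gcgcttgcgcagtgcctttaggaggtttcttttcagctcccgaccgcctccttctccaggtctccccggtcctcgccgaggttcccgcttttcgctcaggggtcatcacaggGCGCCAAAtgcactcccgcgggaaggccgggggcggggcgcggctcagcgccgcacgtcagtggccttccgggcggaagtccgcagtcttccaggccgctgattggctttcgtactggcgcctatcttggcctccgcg
Mcm7: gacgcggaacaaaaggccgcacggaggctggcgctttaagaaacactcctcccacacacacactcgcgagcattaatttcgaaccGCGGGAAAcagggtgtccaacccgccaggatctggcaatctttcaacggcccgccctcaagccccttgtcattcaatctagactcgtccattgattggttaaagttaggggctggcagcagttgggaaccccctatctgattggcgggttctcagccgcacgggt
Topbp1: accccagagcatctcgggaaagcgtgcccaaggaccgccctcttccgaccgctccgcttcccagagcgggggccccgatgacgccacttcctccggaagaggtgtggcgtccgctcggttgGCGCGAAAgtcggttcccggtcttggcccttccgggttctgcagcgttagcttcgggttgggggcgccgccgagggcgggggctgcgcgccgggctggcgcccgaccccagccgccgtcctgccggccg
Cdc6: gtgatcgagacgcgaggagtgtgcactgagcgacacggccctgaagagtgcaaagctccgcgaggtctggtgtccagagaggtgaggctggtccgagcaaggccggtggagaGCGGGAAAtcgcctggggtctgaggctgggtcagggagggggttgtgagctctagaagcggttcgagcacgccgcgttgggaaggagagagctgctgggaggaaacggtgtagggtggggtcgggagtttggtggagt

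Of the 24 DNA replication genes called higher, 20 had a promoter in the table, and 5 of those (25%) held such a motif in the 250 bases. Among all 48 measured members of that list with a promoter, called or not, the count was 9 (18.8%). For all genes called higher it was 52 of 993 (5.24%), for the tested genes as a whole 215 of 5659 (3.80%), and for every promoter in the reference 611 of 32851 (1.86%). A gene was counted once if any of its promoters matched, whereas the reference share counts single promoters. With the 50 bases after the start included, 6 of 20 list members called higher (30%) and 14 of 48 measured members (29.2%) held a motif. In that wider stretch it was 64 of 993 genes called higher (6.45%), 259 of 5659 tested genes (4.58%) and 744 of 32851 promoters (2.26%). A match is a description of letters and not of a bound site.

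The second pair of promoters belongs to genes of the integrated stress response that were higher in Rb-null cells, Asns, the asparagine synthetase, and Gars, the glycyl transfer RNA synthetase. The capitals mark TTTCATCA, which with TTGCATCA was searched on both strands as a core shared by ATF4-CHOP composite elements, letters that were picked after the counts of the list had been seen. Asns lies at chr6:7693210-7693459 on the minus strand (motif at -23) and Gars at chr6:55037751-55038000 on the plus strand (motif at -30).
Asns: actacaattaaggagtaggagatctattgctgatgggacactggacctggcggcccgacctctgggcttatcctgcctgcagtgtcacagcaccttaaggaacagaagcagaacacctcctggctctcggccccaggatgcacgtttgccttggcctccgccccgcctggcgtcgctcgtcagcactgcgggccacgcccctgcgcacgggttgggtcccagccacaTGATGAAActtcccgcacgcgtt
Gars: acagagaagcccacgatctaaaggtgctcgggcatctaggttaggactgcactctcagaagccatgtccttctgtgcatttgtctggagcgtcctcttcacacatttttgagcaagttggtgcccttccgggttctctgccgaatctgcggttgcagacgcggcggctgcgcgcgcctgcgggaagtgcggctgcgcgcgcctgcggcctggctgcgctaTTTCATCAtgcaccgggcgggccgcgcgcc

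Among genes with a promoter, such letters stood in 3 of 12 (25%) of the stress response genes called higher and in 4 of 21 of the measured members. They stood in 65 of 5659 (1.15%) of the tested genes and, counted by single promoters, in 547 of 32851 (1.67%) of the whole table.

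The serum-free arrays of a line resembled each other closely, with rank correlations across probe sets of 0.996 between the wild-type and 0.994 between the Rb-null arrays, against 0.965 to 0.972 between the lines. Among the serum arrays, the first wild-type one (wild-type serum 1) was less like the remaining 2 (0.983 to 0.986) than these were like each other (0.997). It enters the serum-free comparison through the normalization, the floor, the filter and the shared estimate of spread, and counts are given with and without it. Intensities are quantile normalised and in arbitrary linear units. The floor of 197, the percentile 25 of all values, stands in for a limit of detection. A difference is the Rb-null minus the wild-type mean on the log2 scale, with its standard error (SE). A gene is called higher or lower at an adjusted p under 0.05 from limma with Benjamini-Hochberg adjustment over all tested probe sets. Where the lower line had both arrays under the floor, the fold is computed against the floor and is a lower bound.

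The epithelial identity in the labels was met by high intensities of luminal keratins in both lines. Krt8 read 9284 and 9259 on the wild-type arrays and 8925 and 7821 on the Rb-null arrays (log2 -0.15, SE 0.06, adjusted p = 0.0896), and Krt19 ran from 9813 to 12815 over the 4 arrays on its brighter probe set (log2 0.25, adjusted p = 0.0869). The other Krt19 probe set was called higher (log2 0.73, adjusted p = 0.0306), a call lost with no filter on low values. Krt18 read 7909 and 7936 against 7014 and 6270 and was called lower (log2 -0.26, adjusted p = 0.0321). That call was lost in the values as deposited and after scaling to a common median. The adhesion genes Cdh1 (1476 to 2254) and Epcam (1391 to 1852) did not pass the test. The basal markers Krt5, Krt14, Krt17 and Trp63 lay above the floor on every serum-free array and Krt15 below it on every one. Krt14, at 205 to 230, was close to the floor.

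Rb1 itself, the targeted gene, read 386 and 370.4 in wild-type cells and 171 and 167, below the floor, in Rb-null cells. The Rb-null arrays lay below both wild-type arrays, at least 1.92-fold lower (log2 -0.94, SE 0.25, adjusted p = 0.0222), but the call was lost without any one of the 4 serum-free arrays (highest adjusted p over the alternatives 0.586, with the floor at percentile 40). Its other probe set read 30.7 to 47.2 on all 4 arrays, under the floor. The sources used here do not say whether either probe set lies in the deleted stretch.

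Without serum, Rb-null cells carried more RNA than wild-type cells for many genes of DNA replication, of the ATF4-CHOP stress response and of the proteasome, and less for cyclin D1, for 19 of 45 genes of the actin cytoskeleton list, for 12 of 33 of the integrin list and for 10 of 35 of the Wnt pathway list. The single genes farthest apart were Lgals1 and Plet1 on the high side and Krt20 and Plac8 on the low side. Across the array, 2971 of 9686 probe sets (30.7%) differed between the lines without serum, 1628 higher (16.8%) and 1343 lower (13.9%) in Rb-null cells. Most of these differences were small, with a median size of 0.48 on the log2 scale against a median SE of 0.10. At least 2-fold differences among the calls numbered 262 (2.7%), 197 higher and 65 lower, and differences of at least 4-fold 16 and 11. No called probe set had overlapping arrays between the lines, but the same held for 7326 probe sets (75.6%) of all those tested, the called ones included. Counted once per gene, 2242 of 7063 genes passed (31.7%), 1231 higher (17.4%) and 1011 lower (14.3%), with a median log2 difference of -0.07 over all genes tested. These shares are the background for the count of each gene list. The background itself moved with the scaling, to 1682 genes higher and 435 lower as deposited and 1521 and 634 at a common median. Without wild-type serum 1 it was 1686 higher and 2027 lower. A list's balance in those fits is to be read beside these counts.

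**Figure D1:**
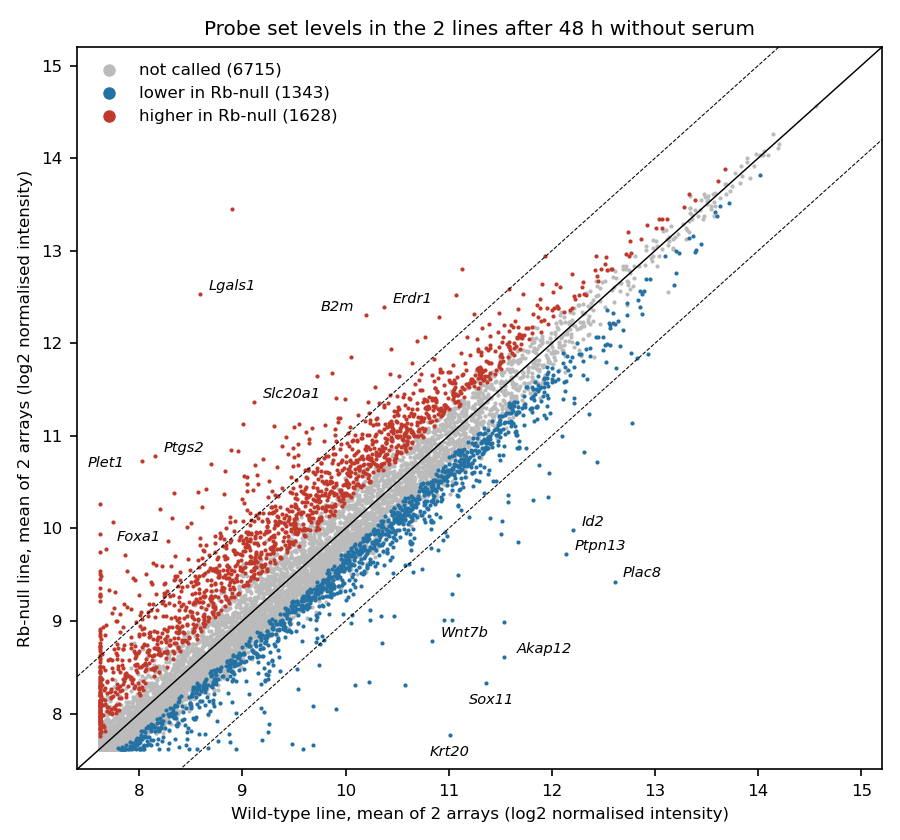
Mean log2 intensity of each of the 9686 tested probe sets in wild-type (x axis) and Rb-null cells (y axis) without serum, on 2 arrays a line. The 1628 probe sets called higher are red, the 1343 called lower blue and the 6715 others grey, and dashed lines mark 2-fold differences. The highest red point off the diagonal that carries no name belongs to a probe set without a single gene symbol, and Lgals1 and Krt20 lie farthest from the diagonal among the labelled genes.

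How many genes passed depended on single arrays more than did the larger differences. Without wild-type serum 1, 4981 probe sets passed, 2256 higher and 2725 lower. Leaving out serum-free array 1 or 2 of the wild-type line gave 1159 and 1392 calls, and leaving out array 1 or 2 of the Rb-null line gave 1289 and 2040. Calls of at least 2-fold stayed between 233 and 306 in all these fits. The balance of directions also followed the scaling: 54.8% of calls were higher after quantile normalization, 77.6% in the values as deposited, 68.1% after scaling to a common median and 45.3% without wild-type serum 1. Unless an exception is given, every gene named from here on as higher or lower kept its call in each of the 18 alternatives that tested it, each of the 9 arrays left out in turn among them. List counts also moved with single arrays. Over the 9 arrays left out in turn, the highest count of a list in either direction was always reached without wild-type serum 1, apart from the lower count of the ATF4-CHOP list, and the lowest always without a serum-free array.

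The largest difference of a named gene was that of Lgals1, the gene of the secreted lectin galectin-1. It read 380.2 and 391 in wild-type cells and 5840.3 and 5985 in Rb-null cells, 15.3-fold higher (log2 3.94, SE 0.07, adjusted p = 4.61e-09). The Rb-null values form a tight pair far above an equally tight wild-type pair. Plet1, a membrane protein of epithelial progenitors, followed at 6.51-fold, with 248 and 274 against 1668 and 1727 (adjusted p = 2.21e-07). Ptgs2, the inducible cyclooxygenase that makes prostaglandin precursors, read 311 and 261 against 2013 and 1534 (log2 2.62, SE 0.22, adjusted p = 5.79e-05). Its Rb-null arrays were further apart than those of Lgals1, yet both exceeded the wild-type arrays several times over. On the same list of prostaglandin genes Pla2g4a, the phospholipase that releases arachidonic acid, was 2.03-fold higher (adjusted p = 0.0028). Ltc4s, the leukotriene C4 synthase, was 3.02-fold higher (adjusted p = 7.17e-05). These 3 were all the higher calls among its 16 measured members (18.8%), near the background of 17.4%, and the list's median was -0.12.

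Several genes were above the floor in Rb-null cells only. Cd200, a membrane glycoprotein that restrains myeloid cells, read 32.5 and 30.2 against 1079.6 and 889, at least 4.98-fold higher. Nupr1, a small stress-induced chromatin protein, read 144 and 157 against 1078 and 1396, at least 6.24-fold higher. Timp3, an inhibitor of metalloproteases, was at least 3.14-fold higher and the chemokine Cxcl1, on 1 of its probe sets, at least 3.58-fold. Each had both wild-type arrays under the floor and both Rb-null arrays well over it.

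Other genes with large differences included Foxa1, a pioneer transcription factor of the luminal prostate epithelium, which read 204 and 207 against 1015 and 759 (log2 2.10, SE 0.22, adjusted p = 0.000237). The wild-type values lie just over the floor and the Rb-null values well clear of it. B2m, which encodes beta-2 microglobulin of class I MHC molecules, rose from 1185 and 1165 to 5173 and 4926 (log2 2.10, SE 0.12, adjusted p = 4.76e-06). Aldh2, the mitochondrial aldehyde dehydrogenase, was higher on all 3 of its probe sets (5.01-fold, 3.54-fold and 2.27-fold), and Ndrg1, a gene of stress and hypoxia, on both of its own (3.80-fold and 3.49-fold). Slc20a1, a phosphate transporter, was 4.74-fold higher, and Fam32a 3.86-fold. Mtm1, Cyba, Erdr1 and Ctse stood between 3.67-fold and 4.36-fold higher, all on probe sets whose family suffix means that related transcripts may bind. Other probe sets of Erdr1 and Fam32a read -0.09 (adjusted p = 0.442) and 0.15 (adjusted p = 0.212).

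On the low side, Krt20, a keratin of differentiated surface epithelia, read 2094 and 2051 in wild-type cells and 227 and 209 in Rb-null cells, 9.52-fold lower (log2 -3.25, SE 0.09, adjusted p = 8.81e-08). Plac8, a cysteine-rich protein of the placenta and several epithelia, read 6164 and 6331 against 766 and 617 (log2 -3.18, SE 0.10). Sox11, a transcription factor of embryonic progenitors, read 2988 and 2319 against 325 and 319 (log2 -3.03, SE 0.14). The Rb-null values of Krt20 lie close to the floor and those of Plac8 and Sox11 above it, all far below the wild-type values.

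Akap12, a scaffold of protein kinases A and C, was 7.62-fold lower and Cavin1, a coat protein of caveolae, 5.85-fold lower. Id2, a binding partner of the retinoblastoma protein that blocks helix-loop-helix factors, read 4712 and 4721 against 1084 and 945 (log2 -2.22, SE 0.09, adjusted p = 8.71e-07). Ptpn13, a tyrosine phosphatase, was 5.31-fold lower, the lactate dehydrogenase subunit Ldhb 4.80-fold, the ligand Wnt7b 4.16-fold and the cadherin Cdh6 4.07-fold. The adenylate kinase Ak1, the thrombin receptor F2r and the adhesion molecule Mcam stood between 3.43-fold and 3.82-fold lower. Igfbp7, which binds insulin-like growth factors, lay under the floor in Rb-null cells (91.7 and 71.9) and read 827 and 714 in wild-type cells, at least 3.91-fold lower.

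**Figure D2:**
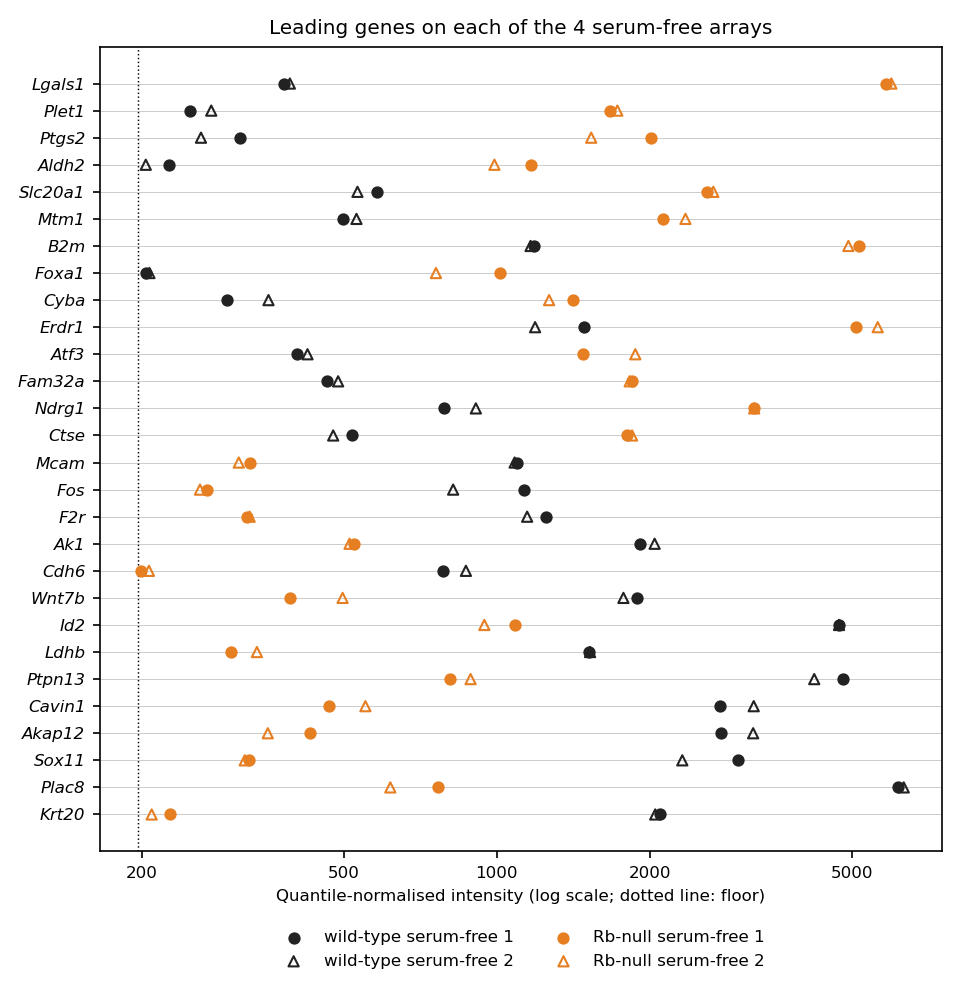
Normalised intensity (log axis) of the 14 named genes with the largest positive and the 14 with the largest negative log2 difference, on each of the 4 serum-free arrays. The dotted line is the floor of 197, and the absence of overlap between the lines was a condition for choosing these genes.

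DNA replication and nucleotide synthesis was, of the 44 lists, the one with the most genes higher by count: 24 of the 53 measured were higher and 3 lower, and 26 missed the threshold. It also had the most measured members, and its share higher was 45.3%, against 60.7% for the ATF4-CHOP and 44.8% for the proteasome list. The median log2 difference of the replication list was 0.28 against -0.07 over all genes and a background of 17.4% higher and 14.3% lower. Among the enzymes that start synthesis, the primase subunit Prim1 read 216 and 252 in wild-type and 867 and 815 in the Rb-null line (log2 1.85, SE 0.15, adjusted p = 4.15e-05). Pola1 read 233 and 239 against 792 and 695 (log2 1.65, SE 0.16, adjusted p = 0.000123). Both genes lay near the floor in wild-type cells and clear of it in Rb-null cells.

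The sliding clamp Pcna, at a much higher intensity, read 1568 and 1632 against 3692 and 3389 (log2 1.14, SE 0.09, adjusted p = 5.06e-05). Rpa1, which coats single-stranded DNA, read 991 and 979.7 against 1879 and 1826 (log2 0.91, SE 0.08), and Fen1, the flap nuclease, stood at 0.83. In all of these the pairs of arrays stayed apart, as they did for every called probe set and 75.6% of all those tested.

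Subunits of the MCM helicase were among the genes higher in Rb-null cells. Mcm3 read 946 and 969 against 1839 and 2108 on its brighter probe set (log2 1.04, SE 0.09, adjusted p = 6.31e-05) and stood at 1.80 on the other. Mcm7 read 1117 and 1217 against 2221 and 2369 (log2 0.98, SE 0.10, adjusted p = 0.0002). Mcm4 stood at 0.96 (SE 0.11) and Mcm2 at 0.86 (SE 0.10). For Mcm5 the probe sets differed: one rose by 0.69 (SE 0.10, adjusted p = 0.00105) and the brighter one, which carries a suffix for reduced specificity, read -0.30 (adjusted p = 0.0547). Other members, named after their values were seen, were Gmnn, which encodes geminin, at 1.35 (SE 0.17), Topbp1 at 1.29 (SE 0.16) and the origin subunit Orc6 at 0.91. Slbp, which processes histone messages, stood at 1.15 (SE 0.18) and the maintenance methyltransferase Dnmt1 at 0.65 (SE 0.08) on its brighter probe set and 0.04 (adjusted p = 0.746) on the other. Cdc6 was called at 0.52 but sat at the floor in the wild-type line (194 and 204 against 302 and 271), and its call was lost without either wild-type serum-free array, without Rb-null serum-free 1 and with the floor at percentile 40 (highest adjusted p = 1).

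Not every gene of S phase was higher. Rrm2, the small subunit of ribonucleotide reductase, read 445 and 519 against 519 and 449.8 (log2 0.01, adjusted p = 0.964). The 3 members called lower were thymidine kinase Tk1 (-0.39), the chromatin assembly factor Chaf1a (-0.29) and the polymerase subunit Pold1 (-0.24). All 3 lost their calls in the values as deposited and after scaling to a common median, where the list read 28 higher and 0 lower, and 27 higher and 0 lower. Without 1 array the higher count ran from 17 to 29, the larger without wild-type serum 1, which also gave 7 lower. In serum, where the group means rest on the other 5 arrays of the same fit and 23.6% of all probe sets passed, 22 members were higher and 2 lower with a median of 0.25.

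**Figure D3:**
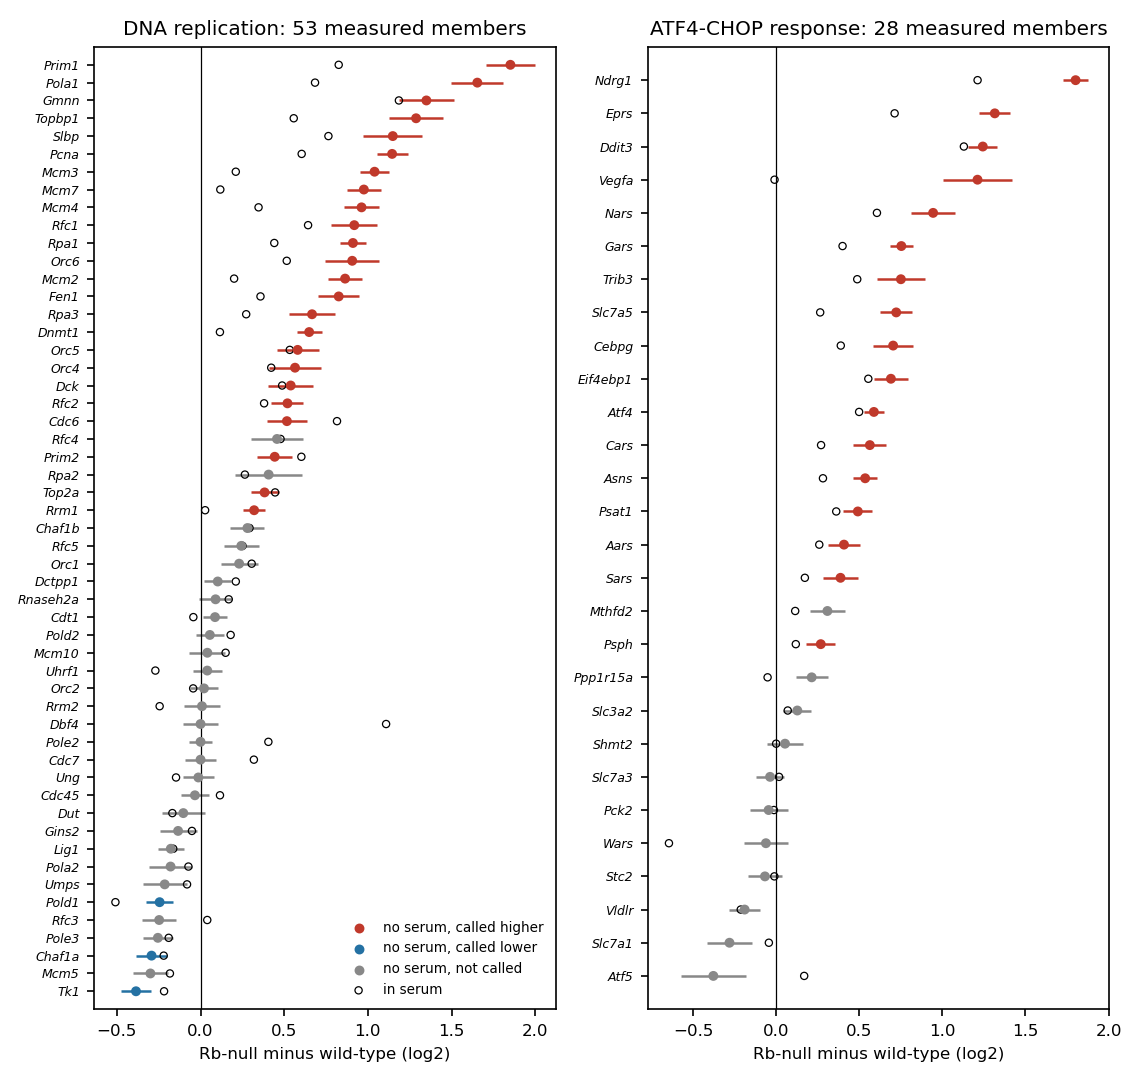
Log2 difference with its SE for each of the 53 measured replication genes and the 28 measured ATF4-CHOP genes, without serum (filled) and in serum (open). Prim1, Pola1, Mcm2, Mcm3, Mcm4 and Mcm7 stand further to the right without serum than in serum, Mcm5 and Mcm10 do not, and no ATF4-CHOP member was called lower without serum. Mcm5 is drawn from its brighter probe set, of reduced specificity, and its other one read 0.69 without serum and 0.18 in serum.

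DNA repair genes gave 7 of 27 higher and 1 lower, with a median of 0.14. Xrcc6, a Ku subunit of DNA end joining, stood at 0.96 (SE 0.12, adjusted p = 0.00073) and Mre11a at 0.84 (SE 0.11). Without wild-type serum-free 1 the count was 3 higher, and without wild-type serum-free 2 or Rb-null serum-free 1 it was 4.

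The regulators upstream of replication went both ways, 5 of 18 members of the G1/S and RB-E2F list higher and 6 lower, with a median of -0.14 (without 1 array 2 to 5 higher and 3 to 8 lower). Myc, the growth-promoting transcription factor, read 497 and 542 in wild-type and 1636 and 1397 in the Rb-null line (log2 1.54, SE 0.21, adjusted p = 0.000989). Ccnd1, cyclin D1, read 7213 and 7335 against 3673 and 3656 (log2 -0.99, SE 0.06, adjusted p = 4.76e-06). The Rb-null cyclin D1 values were nearly equal and sat far below the wild-type values. The other probe set of Ccnd1 stood at -0.53, a call lost in 8 alternatives (highest adjusted p = 0.204). Cyclins D3 (Ccnd3, -0.75, SE 0.08) and D2 (Ccnd2, -0.65) were lower as well.

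Cdk2, the kinase partner of cyclin E, was higher on both probe sets (0.54 and 0.45), the second lost without wild-type serum-free 2 or either Rb-null array (highest adjusted p = 0.0819). Rbl1, the Rb relative p107, was called at 0.52 (adjusted p = 0.0112), lost without either wild-type array or Rb-null serum-free 1 (highest adjusted p = 0.0779). Its relative Rbl2 was under the floor in the wild-type line (169 and 173 against 275 and 231) and its call at 0.36 was lost without either of them (highest adjusted p = 0.059). E2f1 read -0.18 and 0.05 on its probe sets, E2f3 0.06 and Ccne1 -0.22, and none passed. Cdkn1a, the kinase inhibitor p21, stood at -0.43 on both probe sets, with calls lost without wild-type serum-free 2 or Rb-null serum-free 1 on the brighter (highest adjusted p = 0.063) and in 9 alternatives on the other. It was the 1 called member of 6 on the list of kinase inhibitors, where Cdkn2a read -0.16 (adjusted p = 0.392).

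Of 40 measured mitosis genes 4 were higher and 8 lower, with a median of -0.04. Cdk1, the mitotic kinase, read 1379 and 1314 against 1376 and 1438 (log2 0.06, SE 0.09, adjusted p = 0.578), and Mki67, the proliferation antigen Ki-67, read 209.6 and 187 against 231 and 209.8, close to the floor in both lines. Anln, a scaffold of the cleavage furrow, was higher at 0.89 (SE 0.14, adjusted p = 0.00187), Stmn1, which destabilises microtubules, at 0.72 and the condensin subunit Smc4 at 0.51. Kif23, a kinesin of the midbody, was lower at -0.60 (SE 0.10, adjusted p = 0.00227). Calls for Plk1 (-0.51), Pttg1 (-0.50), Foxm1 (-0.43) and Birc5 (-0.28) were lost in at least 6 of the alternatives each. As deposited and after scaling to a common median 5 members were higher and 2 lower. The background over all genes also moved to the higher side in those fits. Without wild-type serum 1 the counts were 8 higher and 11 lower. In serum 15 were higher and 4 lower with a median of 0.20.

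The ATF4-CHOP integrated stress response was higher for 17 of 28 measured genes and lower for 0, with a median of 0.45. Ddit3, which encodes CHOP, read 1377 and 1376 in wild-type and 3058 and 3470.0 in the Rb-null line (log2 1.24, SE 0.09, adjusted p = 1.82e-05). Atf4 itself read 3838 and 3728 against 5694 and 5676 (log2 0.59, SE 0.06, adjusted p = 0.00017). Within each line the arrays differed far less than the lines did.

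Its targets in amino acid supply included the glutamyl-prolyl synthetase Eprs at 1.32 (SE 0.09), the asparaginyl synthetase Nars at 0.94 (SE 0.13), Gars at 0.75 (SE 0.07), the amino acid transporter Slc7a5 at 0.72 and Asns at 0.54 and 0.98 on its 2 probe sets. Trib3, a pseudokinase that feeds back on ATF4, read 1315 and 1354 against 1929.5 and 2612 (log2 0.75, SE 0.14). Cebpg, a dimer partner of ATF4, stood at 0.70 and the translation inhibitor Eif4ebp1 at 0.69. Vegfa, the vascular growth factor, was higher at 1.21 (SE 0.21) without serum and read -0.01 in serum, although the test of that difference missed the threshold (adjusted p = 0.12). In serum 11 members were higher and 1 lower, with a median of 0.22. Counts without 1 array ran from 14 to 19 higher.

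Chaperones of the endoplasmic reticulum, the other arm of protein stress, gave 3 of 21 higher and 5 lower. That balance turned with the scaling: it was 4 and 1 as deposited and 3 and 2 at a common median, and without 1 array 0 to 6 were higher and 1 to 7 lower. Pdia4, a disulphide isomerase, was lower at -0.77 (SE 0.11, adjusted p = 0.0013). Hspa5, the chaperone BiP, was called higher at 0.41, lost on leaving out wild-type serum-free 1 or Rb-null serum-free 2 and with no filter on low values (highest adjusted p = 0.117).

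Proteasome subunits were higher for 13 of 29 and lower for 1, with a median of 0.32. Psmc2, an ATPase of the regulatory cap, read 1582 and 1721 against 4334 and 4001 (log2 1.34, SE 0.13, adjusted p = 0.000151). The others were smaller: Psma2 at 0.54 (SE 0.10), Psmd7 at 0.46 (SE 0.08), Psma4 at 0.45 and Psmb3 at 0.35 (SE 0.06). The higher count was 7 or 8 without any one of the 4 serum-free arrays and 20 without wild-type serum 1. In serum 5 were higher and 2 lower.

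Genes of the mitochondrial respiratory chain and ATP synthase were higher for 19 of 51 and lower for 1, with a median of 0.12. Uqcrb of complex III read 1186 and 1483 against 2609 and 2483 (log2 0.94, SE 0.12, adjusted p = 0.000579), on a probe set with a family suffix. Ndufa8 of complex I stood at 0.78 (SE 0.13), Ndufs3 at 0.63, Cox7a2 of complex IV at 0.73 (SE 0.11) and Uqcrq at 0.46 (SE 0.05). The wild-type arrays lay below the Rb-null arrays for each, but lines without overlap were found for 75.6% of all probe sets tested. Leaving out serum-free array 1 or 2 brought the higher count to 6 and 13 for the wild-type line and to 7 and 15 for the Rb-null line, and it was 24 without wild-type serum 1. In serum 12 were higher and 7 lower.

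Lysosome and autophagy genes gave 11 of 34 higher and 7 lower (without 1 array 7 to 12 higher and 2 to 10 lower). Ctsl, the lysosomal protease cathepsin L, read 2818 and 3348 against 6242 and 6028 (log2 1.00, SE 0.09, adjusted p = 9.3e-05). Sqstm1, the autophagy receptor p62, read 3906 and 3909 against 7968 and 7721 (log2 1.01, SE 0.08, adjusted p = 5.28e-05). The membrane protein Lamp2 stood at 0.54 on its brighter probe set. Gm2a, a lipid-binding activator, was lower at -0.62 (SE 0.08).

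The list of actin cytoskeleton and small GTPase genes went the other way: 19 of 45 members were lower and 3 higher, with a median of -0.21. Rhoc, a small GTPase that acts on actin filaments, read 3899 and 4082 in wild-type and 1245 and 1347 in the Rb-null line (log2 -1.62, SE 0.08, adjusted p = 2.27e-06) and stood at -0.53 on its other probe set, a call lost on leaving out any one of the 4 serum-free arrays, in the values as deposited and with no filter on low values (highest adjusted p = 0.094). Capn1, a calcium-activated protease, stood at -0.95 (SE 0.11), the profilin Pfn2 at -0.84 and the non-muscle myosin Myh9 at -0.73 (SE 0.11). Cofilin, Cfl1, which severs filaments, read 9328 and 9555 against 6926 and 6983 (log2 -0.44, SE 0.06, adjusted p = 0.00107). The difference is modest but more than its arrays' spread. Tmsb10, which binds actin monomers, stood at -0.56 (SE 0.05).

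As deposited the actin list read 12 lower and 4 higher, and after scaling to a common median 14 lower and 3 higher. It read 10 lower without Rb-null serum-free 1, 11 without wild-type serum-free 1 and 23 without wild-type serum 1. In serum 18 were lower and 3 higher.

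Integrins, laminins and hemidesmosomes were lower for 12 of 33 and higher for 4, with a median of -0.23. Itga3, an integrin that binds laminin, read 6999 and 6983 against 3609.6 and 4046 (log2 -0.87, SE 0.09, adjusted p = 0.00026). Cd81, a tetraspanin partner of integrins, stood at -0.71 (SE 0.07), Itgb5 at -0.61 (SE 0.08), against -0.23 (adjusted p = 0.15) on its other probe set, and the proteoglycan Hspg2 at -0.78. Sdc1, a surface proteoglycan, was higher at 1.43 on both probe sets (adjusted p = 0.000123 on the brighter). As deposited the counts were 6 lower and 5 higher. Without Rb-null serum-free 1 there were 6 lower, without either wild-type serum-free array 7, and without wild-type serum 1 16.

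Wnt pathway genes were lower for 10 of 35 and higher for 2, with a median of -0.24. Besides Wnt7b, the ligand Wnt10a read 1290.1 and 1309 against 543 and 517 (log2 -1.29, SE 0.09, adjusted p = 1.79e-05) and Wnt4 stood at -0.58. The intracellular effector beta-catenin, Ctnnb1, was higher at 0.81 (SE 0.09, adjusted p = 0.000245). Wild-type values of the ligands were all above the Rb-null values, and for Ctnnb1 all below. Such a separation held for every called probe set and for 75.6% of all those tested. As deposited the counts were 6 lower and 4 higher. Without 1 serum-free array 4 to 6 were lower, without either Rb-null serum array 7 and without wild-type serum 1 16.

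In the TGF-beta, BMP and Id list 8 of 38 genes were lower and 6 higher. As deposited and at a common median the balance was the opposite, 8 higher and 5 lower, and without 1 array 4 to 7 were higher and 5 to 14 lower. Id2 led it, and Bmp7 read 1475 and 1342 against 699.6 and 768 (log2 -0.94, SE 0.11, adjusted p = 0.000397). Tgfb1 stood at -0.73, while Id3, a relative of Id2, was higher at 0.72 (SE 0.11).

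Caveolae and membrane scaffold genes were lower for 10 of 29 and higher for 4. Beyond Cavin1 and Akap12, Marcksl1 stood at -0.75 (SE 0.12) and the annexin Anxa5 at -0.56 (SE 0.07). Without 1 array 5 to 13 were lower and 1 to 4 higher. As deposited, 5 were lower and 5 higher, beside a background of 435 genes lower and 1682 higher in the same values. The members named here kept their direction.

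Lists of markers of other cell types stand beside the cytoskeletal and matrix results. Of 11 measured smooth muscle genes 5 were lower and 0 higher, with a median of -0.39, and without any one of the 4 serum-free arrays 2 were lower, against 8 without wild-type serum 1. Smtn, smoothelin, read 1595 and 1570.1 against 978 and 864 (log2 -0.78, SE 0.11, adjusted p = 0.00111) and Actg2 stood at -0.54 on a family-suffix probe set. The summed intensity of the 14 listed smooth muscle genes on the array ran from 27494 to 27920 in wild-type and from 23639.5 to 25446 in Rb-null cells. Of the 5 defining genes, Acta2 and Myh11 lay below the floor on all 4 arrays, and Actg2 (3894 to 5944), Tagln (417 to 616) and Des (609.9 to 850.0) above it on all 4. In bulk RNA, fewer cells of a type and less RNA per cell cannot be told apart.

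Mesenchymal and matrix genes were lower for 7 of 30 and higher for 3 (as deposited 4 higher and 3 lower, without 1 array 3 to 4 higher and 2 to 11 lower). Twist1 stood at -0.78, Col4a1 at 0.74 and Col18a1 at -0.70 on its brightest probe set, with 3 others lower and 1 at 0.08 (adjusted p = 0.613). All 5 defining genes (Col1a1, Col1a2, Col3a1, Pdgfra and Dcn) lay above the floor on all 4 arrays, and the list had sums of 41179 to 41824 in wild-type and 34935 to 37778 in Rb-null cells over the 38 on the array. Endothelial genes were lower for 4 of 13 and higher for 0 (0 to 7 lower without 1 array), with sums of 6957 to 7031 and 5659 to 5913. Of their 4 defining genes Tek lay below the floor on all 4 arrays, Cdh5 on 2, and Pecam1 (391 to 566) and Kdr (565 to 766) on none. Leukocyte genes were lower for 3 of 17 (17.6%) and higher for 0, near the background of 14.3% lower. Without wild-type serum 2 or 3 or either wild-type serum-free array 0 were lower, without either array of the Rb-null line in either medium 1, and without wild-type serum 1 9. Their sums were 11438 to 11537 and 9925 to 10044, with Ptprc and Lyz2 below the floor on all 4 arrays and Cd3e (767 to 976), Cd14 (1045 to 1126) and Cd68 (572 to 627) above it on all 4. The part of these cells in the results was not tested.

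**Figure D4:**
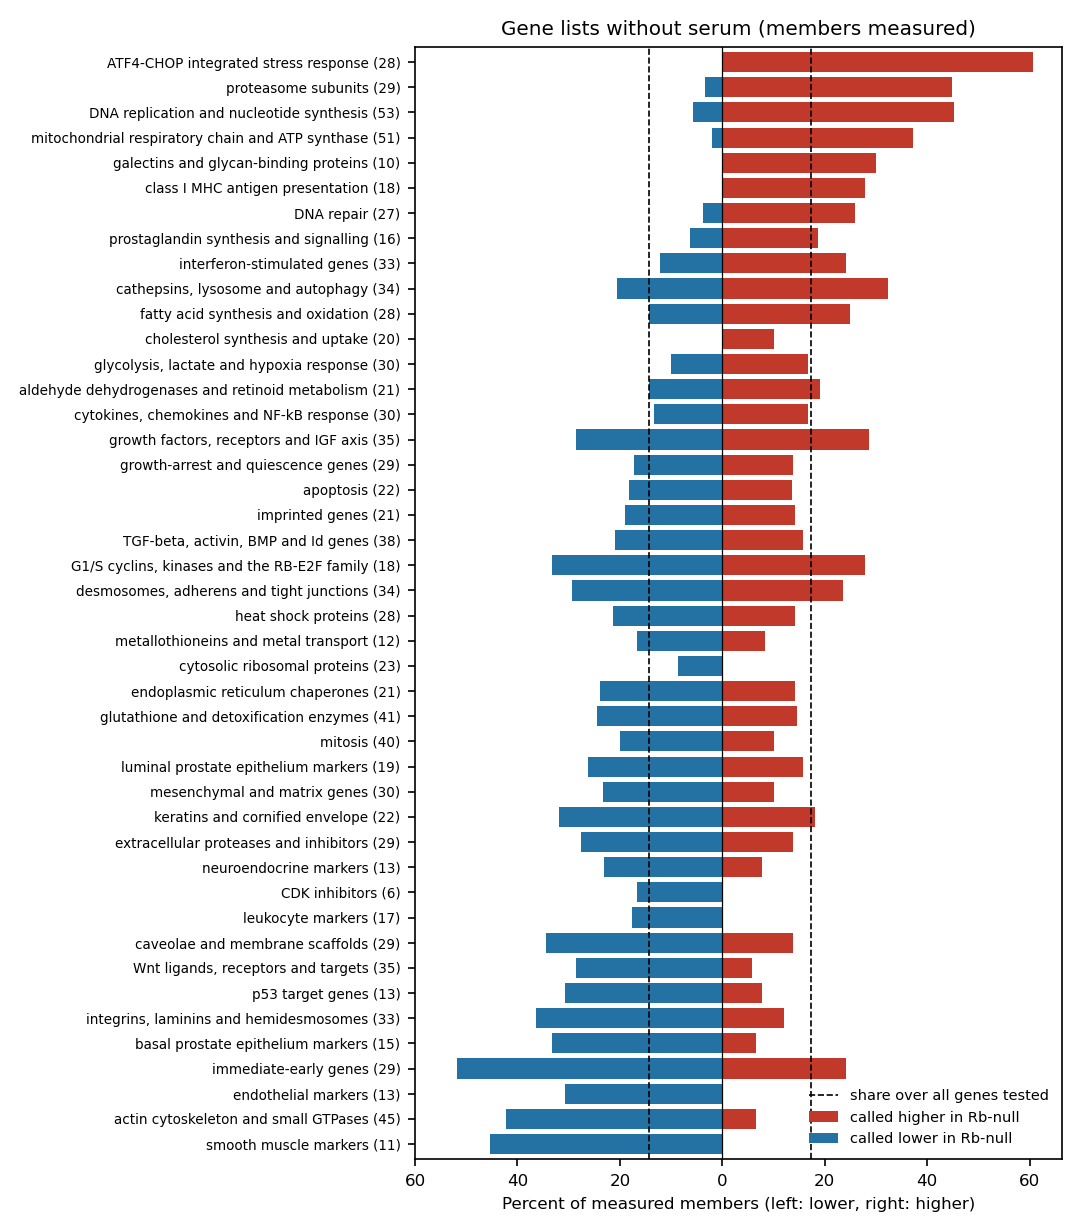
Percent of the measured members of each of the 44 lists called higher and called lower in Rb-null cells without serum, with the share over all genes as dashed lines at 17.4% and 14.3%. ATF4-CHOP, replication and proteasome genes extend farthest to the higher side and immediate-early, smooth muscle and actin genes farthest to the lower side.

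Immediate-early genes, which answer growth factors within minutes, were lower for 15 of 29 and higher for 7, with a median of -0.29. Fos read 1130.4 and 820.0 in wild-type and 268 and 260.1 in the Rb-null line (log2 -1.87, SE 0.15, adjusted p = 5.07e-05). Egr1 read 2405 and 1980.2 against 1313 and 1142 (log2 -0.83, SE 0.12, adjusted p = 0.00116). The wild-type arrays differed more from each other than the Rb-null arrays did, without reaching them.

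Junb stood at -1.21 (SE 0.21) on 1 probe set and the phosphatase Dusp1 at -1.13 (SE 0.15). Another Junb probe set stood at -0.41, a call lost in 5 alternatives, the values as deposited and the common median among them. Against this direction, the kinase Sgk1 was higher at 1.54 (SE 0.12) and Klf4 at 0.83 (SE 0.11). Atf3 could not be given a direction, since its probe sets read 2.01, 0.34 and -0.42, with the first and last called. Leaving out serum-free array 1 or 2 of the wild-type line brought the lower count to 7 and 8, and leaving out array 1 of the Rb-null line to 10. It was 7 in the values as deposited and 10 after scaling to a common median. In serum 6 members were lower and 9 higher, with a median of 0.02.

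Interferon-stimulated genes gave 8 of 33 higher and 4 lower, with a median of 0.00 (without 1 array 4 to 10 higher and 2 to 7 lower). Trim25, a ubiquitin ligase of the RNA-sensing pathway, stood at 1.08 (SE 0.14, adjusted p = 0.00074), Ifitm3 at 0.77 (SE 0.06) and Gbp2 at 0.60 (SE 0.08). Ifi202b lay under the floor in wild-type cells (49.9 and 55.3 against 728 and 765) and was at least 3.79-fold higher. Ifi204, a relative, was called higher on 1 probe set and lower on another, the lower call being lost on leaving out any one of the 4 serum-free arrays and in the values as deposited (highest adjusted p = 0.12). In the class I MHC list 5 of 18 were higher and 0 lower (1 to 6 higher without 1 array). Apart from B2m, the calls there were at most 0.55 on the log2 scale, and those of Psme1, Psmb8 and H2-K1 were each lost without at least 1 serum-free array (highest adjusted p = 0.123, 0.0638 and 0.124).

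Cytokine genes gave 5 of 30 higher and 4 lower (as deposited 5 higher and 1 lower, without 1 array 3 to 5 higher and 0 to 7 lower). The main shares, 16.7% higher and 13.3% lower, lay near the background of 17.4% and 14.3%. Il1a, the interleukin-1 alpha precursor, read 249 and 253 against 518 and 498 (log2 1.02, SE 0.08, adjusted p = 2.65e-05).

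Among epithelial structure genes, the desmosomal Pkp1 was higher at 1.49 (SE 0.08, adjusted p = 3.52e-06, on a family-suffix probe set) and Dsp, desmoplakin, at 1.11 (SE 0.14). The tight junction genes Cldn1 (-1.08, SE 0.10, its other probe set lying under the floor on all 4 arrays) and Cldn7 (-0.40, SE 0.05) were lower. In all, 8 of 34 junction genes were higher and 10 lower (as deposited 10 higher and 7 lower, without 1 array 6 to 9 higher and 5 to 12 lower). Sprr1a, a cornified envelope precursor, read 2093 and 2226 against 6548 and 5276 (log2 1.45, SE 0.10, adjusted p = 1.85e-05), and 4 of 22 keratin and envelope genes were higher and 7 lower (as deposited 5 higher and 3 lower, without 1 array 1 to 5 higher and 1 to 9 lower). Sfn, stratifin, which p53 induces in epithelia, read 2063 and 2314 against 780.4 and 665 (log2 -1.60, SE 0.13, adjusted p = 5.28e-05). Perp, another p53 target and a desmosomal protein, stood at -0.86 (SE 0.11), and of 13 p53 targets 1 was higher and 4 lower (as deposited 3 higher and 3 lower, without 1 array 1 to 3 higher and 2 to 4 lower).

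Growth factor genes were split, 10 of 35 higher and 10 lower (as deposited 11 higher and 6 lower, without 1 array 7 to 10 higher and 5 to 15 lower). Igfbp3, which carries insulin-like growth factors, was higher at 1.38 (SE 0.10) and the ligand Ereg at least 2.20-fold, while the receptor Igf1r was lower at -0.66 (SE 0.13). Of 29 extracellular protease and inhibitor genes 4 were higher and 8 lower (as deposited 4 higher and 5 lower, without 1 array 3 to 4 higher and 3 to 13 lower). The membrane protease Mmp14 read 4198 and 3847 against 1599 and 1497 (log2 -1.38, SE 0.08, adjusted p = 5.89e-06), the serpin Serpinb9 stood at -1.74 (SE 0.09) and the sheddase Adam10 at 1.55 on its brighter probe set and 0.34 (adjusted p = 0.0892) on the other.

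Among 41 glutathione and detoxification genes 6 were higher and 10 lower, a balance that was the reverse as deposited (10 and 6), and without 1 array 3 to 8 were higher and 4 to 17 lower. Gstm1, a glutathione transferase, stood at -1.11 (SE 0.08, family suffix) and at -0.36 (adjusted p = 0.0598) on its other probe set, and Prdx4, a peroxiredoxin, at 1.12 (SE 0.17). Fatty acid genes gave 7 of 28 higher and 4 lower, led by the desaturase Scd1, which read 602 and 535 against 1602 and 1268 (log2 1.33, SE 0.13, adjusted p = 0.000146) on its brightest probe set, with 1.86 and 0.32 (adjusted p = 0.178) on the others. Counts for the fatty acid list were as deposited 13 higher and 3 lower, without 1 array 3 to 11 higher and 1 to 7 lower. Glycolysis and hypoxia genes gave 5 of 30 higher and 3 lower (as deposited 9 higher and 3 lower, without 1 array 2 to 9 higher and 2 to 6 lower). The main glycolysis shares, 16.7% higher and 10% lower, stood beside a background of 17.4% and 14.3%. Cholesterol genes gave 2 of 20 higher and 0 lower, and of 23 cytosolic ribosomal protein genes 2 were lower and 0 higher, with all of those calls lost under several alternatives. Aldh1a2, which makes retinoic acid, was lower at -1.60 (SE 0.09, adjusted p = 3.82e-06).

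The same lines could be compared in serum on the other 5 arrays, whose group means share no array with the serum-free ones, although normalization, floor, filter and spread are common to the 9 arrays. There 2287 probe sets (23.6%) passed. Of the 2971 serum-free calls 1611 were called in the same direction in serum, 54.2% of the serum-free and 70.4% of the serum calls, and 10 in the opposite direction. Without wild-type serum 1 it was 3450 (69.3% and 78.8%). Of the 262 calls of at least 2-fold, 235 (89.7%) were called in the same direction and 0 in the opposite one. The median log2 difference of the probe sets called higher was 0.56 without serum, the measure that chose them, and 0.38 in serum, and that of the called lower -0.41 and -0.28.

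Whether the genotype difference itself changed with the medium was tested for each probe set, and 90 of 9686 (0.929%) passed. The difference was more positive without serum for 44 of these and more negative for 46. At an unadjusted p under 0.05 there were 1059. Without wild-type serum 1 there were 255 calls, and without any one of the other 8 arrays between 12 and 59.

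Mcm3 and Mcm7 were among those with a more positive difference. In serum Mcm7 read 2441, 2094 and 2319 in wild-type and 2631 and 2327 in Rb-null cells, where the arrays overlapped. Its wild-type level fell by 0.97 on the log2 scale on withdrawal of serum (adjusted p = 0.00013), while the Rb-null level read -0.11 (adjusted p = 0.62). The difference between media was 0.86 (SE 0.14, adjusted p = 0.0228), and for Mcm3 it was 0.83 (adjusted p = 0.017) and 1.42 (adjusted p = 0.0312) on its probe sets. Prim1, Pcna and Pola1 read 1.03 (adjusted p = 0.052), 0.54 (adjusted p = 0.12) and 0.97 (adjusted p = 0.0905), which missed the threshold.

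Mgst1, a microsomal glutathione transferase, lay below the floor on all 5 serum arrays and read 196 and 242 without serum in wild-type and 698 and 577 in Rb-null cells (difference between media 1.54, SE 0.15, adjusted p = 0.00368). For Nupr1 the wild-type line lay under the floor in both media, so its 1.48 (adjusted p = 0.00433) is the change of the Rb-null line alone. The opposite held for Tnc, the matrix protein tenascin C, which on 1 probe set was higher in Rb-null cells by at least 2.72 in serum and by at least 0.64 without it. All 5 wild-type arrays lay below the floor, so the difference between media of -2.08 (adjusted p = 1.48e-05) is the change of the Rb-null line alone. The other Tnc probe set read 0.03 without serum and was not called (adjusted p = 0.7). The call without serum was lost with the floor at percentile 40 (adjusted p = 1). Sparc, another matrix protein, was higher by at least 1.95 in serum, where the wild-type arrays lay below the floor, and read 0.13 without it (adjusted p = 0.642, difference -1.81, adjusted p = 0.025).

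Hspa1a, an inducible heat shock protein, crossed over. It read 468 and 491 against 343 and 319 without serum (log2 -0.54, SE 0.08, adjusted p = 0.00178) and was higher in Rb-null cells by 1.06 in serum. Its near copy Hspa1b gave -0.60 and 1.49, the serum-free call being lost without either wild-type serum-free array, without Rb-null serum-free 2 and in 3 other alternatives (highest adjusted p = 0.135). These neighbouring genes are near-identical, so their probe sets may read each other's transcripts.

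**Figure D5:**
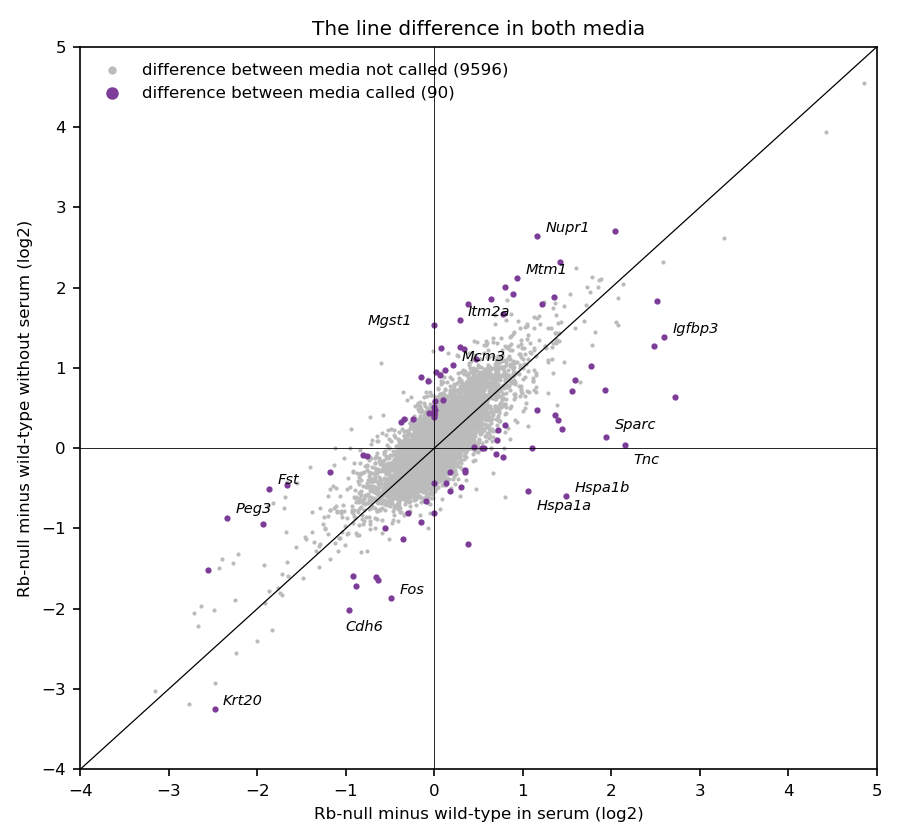
Log2 difference between the lines in serum (x axis) and without serum (y axis) for each tested probe set, with the 90 whose difference changed with the medium in purple and the other 9596 in grey. Most of the cloud runs along the diagonal, and Mgst1, Nupr1 and Mcm3 lie above it while Tnc, Sparc, Hspa1a and Hspa1b lie below it.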

How the data were processed

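Total RNA of the lines was read on single-channel arrays. The authors deposited 1 intensity per probe set and array, linear as judged from the values. The sources used here do not give the software, summary method or scaling behind it. Upper quartiles differed by 0.22 on the log2 scale between arrays (deposited medians 445 to 474), so values were quantile normalised, raised to the floor of 197 and taken to log2, and a probe set had to exceed the floor on at least 2 arrays (2735 did not, and 1 was empty). A single limma 3.58.1 fit in R 4.3.3 held 4 group means over all 9 arrays, with an intensity trend and 5 residual plus 4.20 prior degrees of freedom. Two-sided tests had Benjamini-Hochberg adjustment over 9686 probe sets, and the procedure was tested on simulated data. Names came from the platform annotation, updated by gene identifier through RefSeq (GRCm38.p6), with 10833 probe sets naming 1 gene, 396 several and 1193 none. The family suffix was carried by 1909 tested probe sets. The probe set with the highest mean stood for its gene, and lists were described by counts and medians, with no set test. Members, lists and alternatives were chosen with earlier results of these data known. The naming rule took the 14 highest and 14 lowest called genes, up to 6 a direction with the lower line at the floor, the 6 most extreme a direction for the difference between media, up to 4 members a list (of 44 lists) by adjusted p, and a fixed set of Rb pathway and epithelial genes, some of which are not reported here. Other members named as examples were chosen after their values were seen. The number of arrays limits the precision. Alternatives changed the scaling, floor, filter, trend, block, threshold and arrays.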

Additional observations from a re-analysis of the deposited data

Results flagged for a closer look

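For 37 of the named probe sets, the genotype difference without serum differed from that in serum in the test of the difference itself (limma, adjusted p under 0.05). Values are the serum-free minus the serum log2 difference between Rb-null and wild-type cells, and no explanation was tested.

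Among matrix, adhesion and keratin genes the value was negative for Tnc (-2.12 and -2.08 on its probe sets), Sparc (-1.81), Cdh6 (-1.06), Krt20 (-0.77) and the annexin Anxa6 (-0.64), and positive for the desmosomal cadherin Dsc2 (0.46). Genes induced by stress or growth factors with a negative value were Hspa1b (-2.08), Hspa1a (-1.59), Fos (-1.37), Rhob (-0.71), Sfn (-0.95) and Igfbp3 (-1.22). Secreted inflammatory genes split, with Il1a at -0.76, Cxcl5 at -0.69, Cxcl1 at -0.68 and Pla2g7 at -0.57, but the interleukin-1 antagonist Il1rn at 0.47. In the cell cycle, Dbf4 stood at -1.11, Birc5 at -0.62 and Ccnd1 at -0.43, while Mcm3 stood at 0.83 and 1.42 on its probe sets and Mcm7 at 0.86. Dbf4 lay below the floor on all 4 serum-free arrays.

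Several of these values rest on the floor. The wild-type line lay under it in both media for Nupr1, Ifi202b, Ifi204, Cxcl1, Dsc2 and both Tnc probe sets, and the Rb-null line did for Pla2g7 and Peg3, so each such value is the change of the other line alone, set against the floor. The wild-type serum arrays lay under it for Sparc, Cxcl5, Il1rn, Plet1 and Aldh2, and all 5 serum arrays for Mgst1.

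Of metabolic and detoxifying genes, Mgst1 stood at 1.54, the metallothionein Mt1 at 1.18, Aldh2 at 0.90 on a family-suffix probe set and Aldh1a2 at -0.68. Another Aldh2 probe set read 0.62 and was not called (adjusted p = 0.235, limma). Interferon-inducible Ifi202b and Ifi204 stood at 1.04 and 0.53. The others with a positive value were Nupr1 (1.48), the imprinted zinc finger gene Peg3 (1.48), the activin antagonist Fst (1.36), Itm2a (1.31), Mtm1 (1.19), Plet1 (0.66) and Ndrg1 (0.59). On its other probe set Ndrg1 read 0.39 and was not called (adjusted p = 0.254, limma). For Fst the Rb-null cells were below the wild-type cells in both media, at -0.50 without serum and -1.87 in serum. Peg3 lay under the floor on all 4 Rb-null arrays, so its values of -0.87 and -2.34 are bounds, and its serum-free call was lost in 5 alternatives (highest adjusted p = 0.393, limma).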

How the results depend on the processing

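Of 262 named probe sets called without serum, 176 kept their call under each of the 18 alternative fits that tested them, 86 lost it in at least 1, and 0 reversed. The count of 2971 calls ran from 1159 to 4981 over the 9 arrays left out in turn, that of higher calls from 773 to 2256, of lower calls from 386 to 2725, of calls of at least 2-fold from 233 to 306, of calls shared with serum from 708 to 3450 and of differences between media from 12 to 255. It was 1313 at an adjusted p under 0.01 and 262 with a 2-fold minimum. In the values as deposited 630 rather than 1343 were lower. Differences between media numbered 57 with the floor at percentile 10, 57 without an intensity trend and 51 with the replicate block, against 90. Deviations of same-numbered serum-free arrays correlated at -0.0128, and between serum and serum-free arrays at -0.231 to 0.331. With 2 arrays a line such values cannot decide whether replicate numbers pair the arrays. The replicate block gave 3069 serum-free calls, 1681 higher and 1388 lower, 262 of at least 2-fold and 1133 shared with serum. The count with no filter on low values was 2145. Fits without an array hold fewer samples, and for the other shifts the cause was not tested. Genes near the floor give lower bounds, and 27 of 196 genes with at least 2 called probe sets were called in both directions.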

Other observations

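The following lists stand beside a background of 17.4% of genes higher and 14.3% lower. Of 28 heat shock genes 4 were higher and 6 lower (as deposited 7 higher and 2 lower, without 1 array 1 to 7 higher and 1 to 7 lower), with the mitochondrial chaperone Hspa9 at 0.84 (SE 0.08, adjusted p = 9.08e-05 from limma). Among 22 apoptosis genes 3 were higher and 4 lower (as deposited 4 higher and 0 lower, without 1 array 1 to 4 higher and 0 to 10 lower), of which cytochrome c, Cycs, was at least 1.98-fold higher, a call lost with the floor at percentile 40 (adjusted p = 0.318). Growth-arrest genes gave 4 higher and 5 lower of 29 (as deposited 6 higher and 4 lower, without 1 array 0 to 5 higher and 2 to 9 lower), with the noncoding host gene Gas5 at -0.73 (SE 0.10, adjusted p = 0.00101) on its brighter probe set and -0.21 (adjusted p = 0.236) on the other. Of 21 imprinted genes 3 were higher and 4 lower (as deposited 4 higher and 2 lower, without 1 array 3 to 5 higher and 1 to 9 lower): the receptor Igf2r stood at 0.87 (SE 0.13) and Sgce at -0.54 (SE 0.10). Aldehyde dehydrogenase and retinoid genes gave 4 higher and 3 lower of 21 (without 1 array 2 to 5 higher and 1 to 7 lower), and prostaglandin genes 3 higher and 1 lower of 16 (1 to 6 lower without 1 array). Metal-binding genes gave 1 higher, Mt1 at 1.25 (SE 0.15, adjusted p = 0.000574), and 2 lower of 12 (as deposited 2 higher and 1 lower, without 1 array 1 higher and 0 to 4 lower).

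Basal genes were higher for 1 and lower for 5 of 15 (without 1 array 0 to 2 higher and 1 to 8 lower), and luminal genes higher for 3 and lower for 5 of 19 (as deposited 4 higher and 2 lower, without 1 array 2 to 4 higher and 2 to 7 lower). Besides Foxa1, the luminal ion channel regulator Fxyd3 was higher at 1.04 (SE 0.11, adjusted p = 0.000206). The luminal member farthest on the lower side was Prom1 at -0.57. Its call was lost as deposited, at a common median and without wild-type serum-free 2. Neuroendocrine genes were higher for 1 and lower for 3 of 13 (as deposited 2 higher and 1 lower, without 1 array 1 to 2 higher and 1 to 4 lower), with the neuronal Dpysl3 at 1.49 (SE 0.09, adjusted p = 4.76e-06). Dpysl3 was the only neuroendocrine member called higher, and the member farthest on the lower side was Uchl1 at -0.62. The Uchl1 call was lost without wild-type serum-free 2 or Rb-null serum-free 1. Galectins and related glycan-binding proteins gave 3 higher and 0 lower of 10, where Lgals8 read 282 and 328 in wild-type and 539.5 and 615 in the Rb-null line (log2 0.92, SE 0.11, adjusted p = 0.000426).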
